A study of Mus musculus with 8 samples.

Results

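Transcripts of 10 genes of the liver X receptor (LXR) axis were followed in mouse bone marrow-derived dendritic cell cultures that received recombinant S100A8/A9 or phosphate-buffered saline, called vehicle here. The genes are the receptors Nr1h3 and Nr1h2, the cholesterol efflux genes Abca1, Abcg1, Apoe and Pltp, the ubiquitin ligase gene Mylip, and the lipid synthesis and remodeling genes Srebf1, Scd2 and Lpcat3. They were chosen by symbol, as 10 of the 55450 genes in the table of replicates 1 to 3 and 10 of the 24848 in the separately made table of replicate 4. All 10 passed the filter on low values described below. S100A8/A9 is an alarmin complex, abundant in neutrophils and monocytes and set free during inflammation. Each group held 4 libraries, numbered 1 to 4, from bone marrow of mice with dry eye of the Sjögren's syndrome type. Both groups therefore share the disease background, and no healthy mice were analysed here. Strain, age, dose and time of exposure are not given in the labels used here, nor whether replicates came from separate animals, so the p-values measure only the spread between these libraries.

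LXR alpha and LXR beta, the products of Nr1h3 and Nr1h2, are nuclear receptors that bind oxysterols and pair with retinoid X receptors on DNA. When cholesterol builds up in a myeloid cell, they switch on transporters and lipid acceptors that carry it out, and genes that make and remodel fatty acids. In macrophages they are also known for restraining inflammatory genes, and Toll-like receptor signaling is known to dampen some of their targets.

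The binding site for the receptors in Abca1 and in Srebf1 is an imperfect direct repeat, and it is shown here because it ties these genes to the receptors. In the 250 bases before their RefSeq starts (GRCm38.p6), both strands read, these genes share exactly 1 arrangement of paired 6-letter half-sites with a 4-letter spacer, GGGTTANNNNCGGTCA. These letters were then searched on both strands before every start in the RefSeq table, which covers 8 of the 10 genes with 13 starts, and not Abcg1 and Scd2. Of 32851 promoters, 3 held the letters (0.0091%), and these belonged to Abca1, Srebf1 and Fasn, the fatty acid synthase gene and also a known LXR target. Abca1 and Srebf1 hold them by construction of the search. The 250 bases before each start follow on the strand of the gene, with the element, which reads in the other direction, in capitals.
Abca1: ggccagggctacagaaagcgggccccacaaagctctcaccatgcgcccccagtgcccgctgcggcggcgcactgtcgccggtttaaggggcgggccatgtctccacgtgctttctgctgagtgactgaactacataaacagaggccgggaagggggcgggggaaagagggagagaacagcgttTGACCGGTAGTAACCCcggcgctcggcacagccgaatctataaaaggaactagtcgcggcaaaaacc
Srebf1: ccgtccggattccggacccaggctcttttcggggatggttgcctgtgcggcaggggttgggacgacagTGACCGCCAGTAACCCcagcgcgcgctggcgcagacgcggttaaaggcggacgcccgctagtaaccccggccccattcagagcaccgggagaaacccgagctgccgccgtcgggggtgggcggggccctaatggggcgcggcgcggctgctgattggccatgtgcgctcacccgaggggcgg
Fasn: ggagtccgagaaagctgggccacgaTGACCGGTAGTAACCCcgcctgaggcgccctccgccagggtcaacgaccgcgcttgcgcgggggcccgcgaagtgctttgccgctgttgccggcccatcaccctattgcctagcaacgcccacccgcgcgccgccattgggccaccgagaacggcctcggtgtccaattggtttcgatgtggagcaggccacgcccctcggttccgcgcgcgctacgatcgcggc
The Abca1 sequence is chr4:53159896-53160145 on the reverse strand, and its element lies 67 to 52 bases before the start. The Srebf1 sequence is chr11:60210472-60210721 on the reverse strand and precedes 1 of the 3 starts listed for that gene, with the element 182 to 167 bases before it. The Fasn sequence is chr11:120824548-120824797 on the reverse strand, with the element 225 to 210 bases before the start. A match of letters is a description and not evidence of binding in these cultures. The expression values are per gene, so the starts of Srebf1 cannot be told apart.

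Values are FPKM, fragments scaled to transcript length and library size, a unit inferred from the deposited values. The libraries of replicates 1 to 3 had 11180 to 11487 genes at 1 FPKM or more, and their read depth was not recovered. The values of replicate 4 implied about 33400000 reads with S100A8/A9 and 31900000 with vehicle. Tests used replicates 1 to 3 and the 11387 genes that reached 1 FPKM in 3 or more of these 6 libraries. Since the tables were made separately, levels are not compared across them, and replicate 4 is read as a within-pair ratio. It entered a fit only where all 8 libraries were tried as an alternative. Libraries with the same number resembled each other across groups, so a blocked fit, with replicate number as a further term, is given beside the fit on group alone.

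S100A8/A9 left no called change in the 10 genes. Neither limma fit passed any of them at an adjusted p under 0.05. Across all tested genes 0% were called with group alone and 0.518% with the replicate block. At an unadjusted p under 0.05 the count was 0 of 10 in both limma fits, beside 3.02% of all tested genes with group alone and 7.97% with the block. With group alone the adjusted p was 1.00 for each of the 10 genes (limma), and with the block it lay between 0.785 and 0.998. The median log2 difference was 0.03 over the 10 genes and 0.02 over all 11387, on the log2(FPKM + 1) scale. The values of the groups overlapped for each of the 10 genes, while 4.71% of all tested genes were higher and 1.94% lower without overlap.

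**Figure D1:**
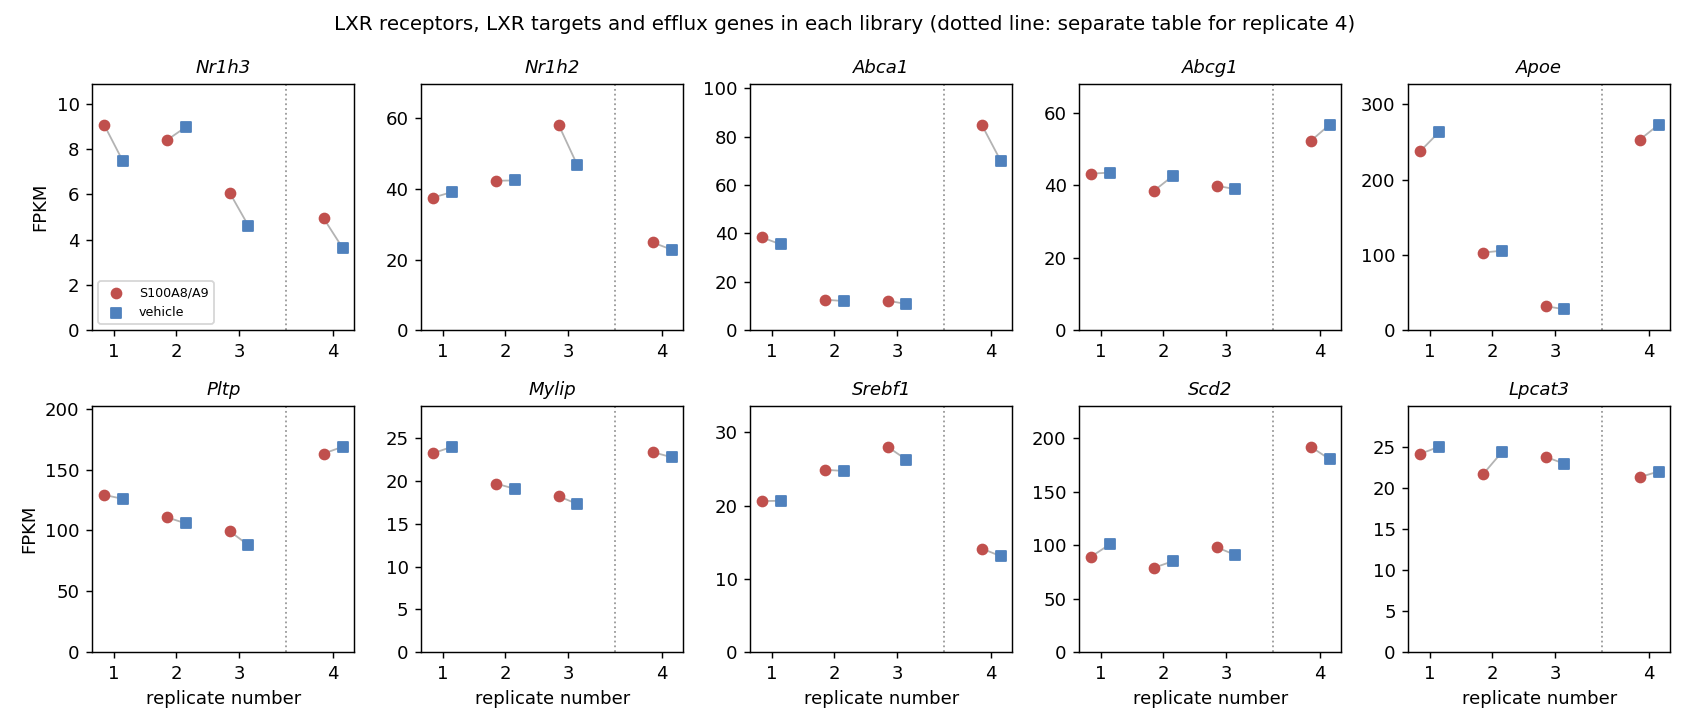
FPKM of each of the 10 genes in each library, with S100A8/A9 (circles) left of vehicle (squares) within each replicate number and a line joining the pair. Replicate 4, right of the dotted line, comes from a separate table, and pairs lie close together while Abca1 and Apoe differ widely between replicate numbers.

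Among the receptors, Nr1h2 was the more abundant by FPKM in every library. Nr1h2 (ENSMUSG00000060601, chromosome 7, 44549616 to 44553951 on the reverse strand, mm10) had 37.5, 42.3 and 58.1 FPKM with S100A8/A9 in replicates 1 to 3, against 39.1, 42.4 and 46.6 FPKM with vehicle. Replicate 4 gave 24.8 FPKM with S100A8/A9 and 22.8 FPKM with vehicle. The S100A8/A9 library of replicate 3 stood highest, and the other pairs of the first table nearly coincided. The mean was 46.0 ± 10.8 FPKM with S100A8/A9 and 42.7 ± 3.79 FPKM with vehicle (SD, n = 3 each). The log2 difference was 0.08 ± 0.085 (SE, blocked limma fit, adjusted p = 0.882).

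Nr1h3 (ENSMUSG00000002108, chromosome 2, 91184061 to 91202834 on the reverse strand) encodes the receptor that is enriched in macrophages, liver and fat. It had 9.08, 8.40 and 6.08 FPKM with S100A8/A9 in replicates 1 to 3, against 7.47, 8.97 and 4.61 FPKM with vehicle. In replicate 4 it had 4.94 FPKM with S100A8/A9 and 3.64 FPKM with vehicle. The S100A8/A9 library was the higher one in 3 of 4 pairs, replicate 2 being the exception, and the groups overlapped. Replicates 1 to 4 had S100A8/A9 to vehicle ratios of 1.22, 0.936, 1.32 and 1.36. Its log2 difference of 0.17 ± 0.10 (SE) was the largest of the 10 genes in the blocked limma fit, with an adjusted p of 0.793 and a 95% interval from -0.08 to 0.41. The replicate 4 ratio rests on about 415 reads with S100A8/A9 and 292 with vehicle, and its exact binomial (Clopper-Pearson) 95% interval is 1.09 to 1.69. Such intervals compare 2 libraries and cover counting error only, with both ends of a fragment counted as 1.

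Abca1, which moves cholesterol and phospholipid onto lipid-poor apolipoprotein A-I, was the only gene of the 10 whose deposited FPKM was higher with S100A8/A9 in all 4 pairs. Abca1 (ENSMUSG00000015243) spans 53030787 to 53159895 on the reverse strand of chromosome 4. It had 38.4, 12.6 and 12.2 FPKM with S100A8/A9 in replicates 1 to 3, against 35.4, 12.0 and 10.8 FPKM with vehicle. Replicate 4 had 85.0 FPKM with S100A8/A9 and 70.2 FPKM with vehicle. Both libraries of replicate 1 stood about 3-fold above those of replicates 2 and 3, so the groups overlapped almost completely. Its 4 within-pair ratios of 1.08, 1.05, 1.13 and 1.21 each stayed above 1 when libraries were rescaled by their sums, by upper-quartile factors or by median-of-ratios factors. The geometric mean over replicates 1 to 3 was 1.08-fold. Under these scalings Abca1 was not the only such gene, since Pltp was also higher in all 4 pairs by sums and Srebf1 by median-of-ratios factors. The log2 difference was 0.11 ± 0.065 (SE, blocked limma fit, adjusted p = 0.785), with a 95% interval from -0.05 to 0.27. Of the 11180 tested genes in both tables, 11.7% were higher in all 4 pairs by deposited FPKM, beside 1 of the 10 genes here. No such share was worked out under the rescalings. In replicate 4 the ratio had an exact binomial 95% interval of 1.18 to 1.24 from counting error alone.

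The macrophage markers moved a little in the same direction as Abca1. The mean log2(FPKM + 1) of 10 such markers, among them Adgre1, Csf1r and C1qa, was higher with S100A8/A9 by 0.09 on average over pairs 1 to 3. It ranged from 4.54 to 6.02 over the S100A8/A9 libraries and from 4.45 to 5.92 over the vehicle libraries, and none of the 10 markers was near 0. Their part in the Abca1 values was not tested. In bulk RNA, fewer cells of a type and less RNA per cell cannot be told apart.

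Abcg1 (ENSMUSG00000024030, chromosome 17, 31057675 to 31117988 on the forward strand), which sends cholesterol to mature high-density lipoprotein, barely varied. It had 43.2, 38.5 and 39.9 FPKM with S100A8/A9 in replicates 1 to 3, against 43.5, 42.6 and 39.0 FPKM with vehicle. In replicate 4 the values were 52.3 FPKM with S100A8/A9 and 56.7 FPKM with vehicle. The S100A8/A9 library was the lower one in 3 of 4 pairs, and the 6 libraries of the first table spanned a narrow range with overlap. It was lower in 4 of 4 pairs under each of the 3 rescalings, for which no share over all tested genes was worked out. The log2 difference was -0.04 ± 0.063 (SE, blocked limma fit, adjusted p = 0.932).

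Apoe encodes apolipoprotein E, a lipid acceptor secreted by macrophages, and it was the most abundant of the 10 genes by mean FPKM in the first table. Apoe (ENSMUSG00000002985) lies at 19696109 to 19699188 on the reverse strand of chromosome 7. It had 238, 103 and 31.9 FPKM with S100A8/A9 in replicates 1 to 3, against 263, 106 and 27.8 FPKM with vehicle. Replicate 4 had 253 FPKM with S100A8/A9 and 273 FPKM with vehicle. Libraries of 1 number lay close together while the numbers lay far apart, with a 7.45-fold range over the S100A8/A9 libraries and a 9.46-fold range over the vehicle libraries. S100A8/A9 was lower in 3 of 4 pairs and higher in replicate 3, with ratios of 0.904, 0.976, 1.15 and 0.927. Within pairs the log2 difference was 0.00 ± 0.076 (SE, blocked limma fit, adjusted p = 0.998), with a 95% interval from -0.18 to 0.19. With group alone the same difference had an SE of 0.92 and an interval from -2.14 to 2.15, because that fit counts the spread between numbers as error.

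Pltp (ENSMUSG00000017754, chromosome 2, 164839518 to 164857711 on the reverse strand) encodes a secreted protein that shuttles phospholipid between lipoproteins. It had 129, 111 and 99.5 FPKM with S100A8/A9 in replicates 1 to 3, against 126, 106 and 87.9 FPKM with vehicle. Replicate 4 gave 163 FPKM with S100A8/A9 and 169 FPKM with vehicle. Pltp and Abca1 were the 2 genes of the 10 that were higher with S100A8/A9 in each of the first 3 pairs, where 19.4% of all tested genes were. For Pltp the replicate 4 pair went the other way, with a ratio of 0.967. By deposited FPKM none of the 10 was lower in all 3 pairs, where 9.62% of tested genes were. When libraries were rescaled, Abcg1 was lower in all 3 pairs by sums, and Abcg1 and Lpcat3 were by median-of-ratios factors. By upper-quartile factors both were lower, and so were Srebf1 and Scd2. The share of all tested genes lower in all 3 pairs was not worked out under these scalings. The median log2 difference over all tested genes was 0.007 by sums, 0.004 by median-of-ratios factors and -0.026 by upper-quartile factors. The log2 difference of Pltp was 0.09 ± 0.056 (SE, blocked limma fit, adjusted p = 0.788).

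Mylip, also known as Idol, encodes a ubiquitin ligase that limits the uptake of cholesterol by marking lipoprotein receptors for degradation. Mylip (ENSMUSG00000038175) lies on chromosome 13 from 45389742 to 45412022 on the forward strand. It had 23.2, 19.7 and 18.2 FPKM with S100A8/A9 in replicates 1 to 3, against 24.0, 19.1 and 17.3 FPKM with vehicle. The replicate 4 libraries had 23.4 FPKM with S100A8/A9 and 22.8 FPKM with vehicle. The largest within-pair ratio was 1.05, in replicate 3, and the groups overlapped. The log2 difference was 0.02 ± 0.064 (SE, blocked limma fit, adjusted p = 0.972).

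Of the lipid synthesis genes, Srebf1 encodes a transcription factor that drives fatty acid synthesis and is itself an LXR target through the element shown above. Srebf1 (ENSMUSG00000020538, chromosome 11, 60199089 to 60222581 on the reverse strand) had 20.6, 24.9 and 28.0 FPKM with S100A8/A9 in replicates 1 to 3, against 20.6, 24.7 and 26.2 FPKM with vehicle. Replicate 4 had 14.1 FPKM with S100A8/A9 and 13.1 FPKM with vehicle. Replicate 1 held the lowest libraries of the first table, where Abca1 and Apoe had their highest. The log2 difference was 0.03 ± 0.062 (SE, blocked limma fit, adjusted p = 0.95). Fasn, named here because it shares the element, averaged 14.1 ± 3.17 FPKM with S100A8/A9 and 14.0 ± 3.26 FPKM with vehicle (SD, n = 3 each). Its within-pair ratios in replicates 1 to 4 were 0.988, 0.926, 1.12 and 1.17. So the 3 genes with the element showed no called change.

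Scd2 (ENSMUSG00000025203, chromosome 19, 44293674 to 44306864 on the forward strand) encodes a desaturase that makes monounsaturated fatty acids. It had 89.4, 78.9 and 98.2 FPKM with S100A8/A9 in replicates 1 to 3, against 101, 85.0 and 90.9 FPKM with vehicle. In replicate 4 it had 192 FPKM with S100A8/A9 and 180.5 FPKM with vehicle. Pairs 1 and 2 were lower with S100A8/A9 and pairs 3 and 4 higher, and the log2 difference was -0.06 ± 0.070 (SE, blocked limma fit, adjusted p = 0.904).

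Lpcat3 (ENSMUSG00000004270, chromosome 6, 124663027 to 124704418 on the forward strand) encodes an enzyme that places polyunsaturated chains into membrane phospholipids. It had 24.1, 21.6 and 23.8 FPKM with S100A8/A9 in replicates 1 to 3, against 25.0, 24.3 and 22.9 FPKM with vehicle. Replicate 4 had 21.3 FPKM with S100A8/A9 and 22.0 FPKM with vehicle. It was lower with S100A8/A9 in 3 of 4 pairs, and in 4 of 4 by median-of-ratios and upper-quartile factors. Shares over all tested genes were not worked out for these factors. Lpcat3 had the smallest spread between replicate numbers of the 10 genes, and its log2 difference was -0.05 ± 0.069 (SE, blocked limma fit, adjusted p = 0.909).

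**Figure D2:**
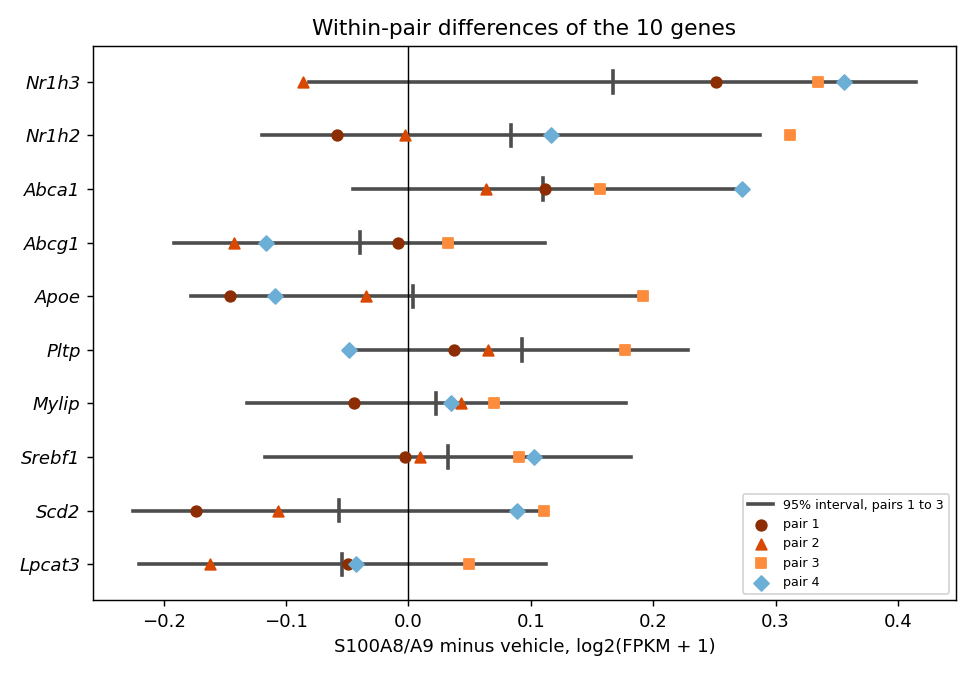
Differences of S100A8/A9 minus vehicle on the log2(FPKM + 1) scale for each of the 10 genes, with 1 marker per pair, a vertical tick at the mean of pairs 1 to 3 and a bar for its 95% interval from the blocked limma fit. All 10 intervals of this fit on 3 pairs include 0, and Abca1 is the gene with 4 markers right of 0.

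The intervals limit how much each gene by itself could have moved, and they depend on the fit. With group alone they ran from -1.16 to 1.38 for Abca1, -2.14 to 2.15 for Apoe and -0.37 to 0.71 for Nr1h3 on the log2(FPKM + 1) scale. The blocked fit takes libraries of the same number as pairs, and its intervals were narrower. In the blocked limma fit, the 95% intervals of the 10 genes reached at most 33.3% higher, for Nr1h3, and at most 14.5% lower, for Scd2, on the FPKM + 1 scale. With all 8 libraries and the block, the intervals of Abca1 (0.03 to 0.28) and Nr1h3 (0.01 to 0.42) lay above 0 on the log2(FPKM + 1) scale. Their adjusted p was 0.48 and 0.597, and their unadjusted p was 0.0236 and 0.0415 (limma). In that fit 931 of 11652 tested genes had an unadjusted p under 0.05. A missed threshold does not show that the groups were equal within these bounds. The direction also depended on the pair. In pair 3 all 10 genes were higher with S100A8/A9, where 66.7% of all tested genes were. In pair 1 it was 3 of 10, beside 48.4% of tested genes, and in pair 2 it was 4 of 10, beside 51.6%. In pair 4 it was 6 of 10, beside 55% of tested genes. The median over all genes in pair 3 was 0.08 on the log2(FPKM + 1) scale. The count of 10 in that pair became 9 when libraries were rescaled by their sums, 8 by median-of-ratios factors and 5 by upper-quartile factors. The share of all tested genes was not worked out under these rescalings.

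The larger contrast among these genes was between replicate numbers. For the 10 genes a median of 87.4% of the sum of squares of log2(FPKM + 1) over 6 libraries lay between replicate numbers and 4.98% between groups, against medians of 63.6% and 6.96% over all tested genes. For Apoe 99.7% lay between numbers, and for Abca1 99.4%. Since 3 replicate numbers can differ in more ways than 2 groups, their share tends to be larger even where neither has an effect. The share of a gene is therefore best read against the median over all tested genes. For Lpcat3 38.1% lay between numbers and 44.6% in the rest. Abca1 and Apoe were also unusual in size. Their mean level per number spanned 1.60 log2 units for Abca1 and 3.03 for Apoe, more than 99.4% and 99.9% of tested genes, where the median was 0.26. Abcg1 and Lpcat3 lay at the other end, with spans of 0.14 and 0.09 log2 units. The span of the remaining 6 genes was 0.21 to 0.62.

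**Figure D3:**
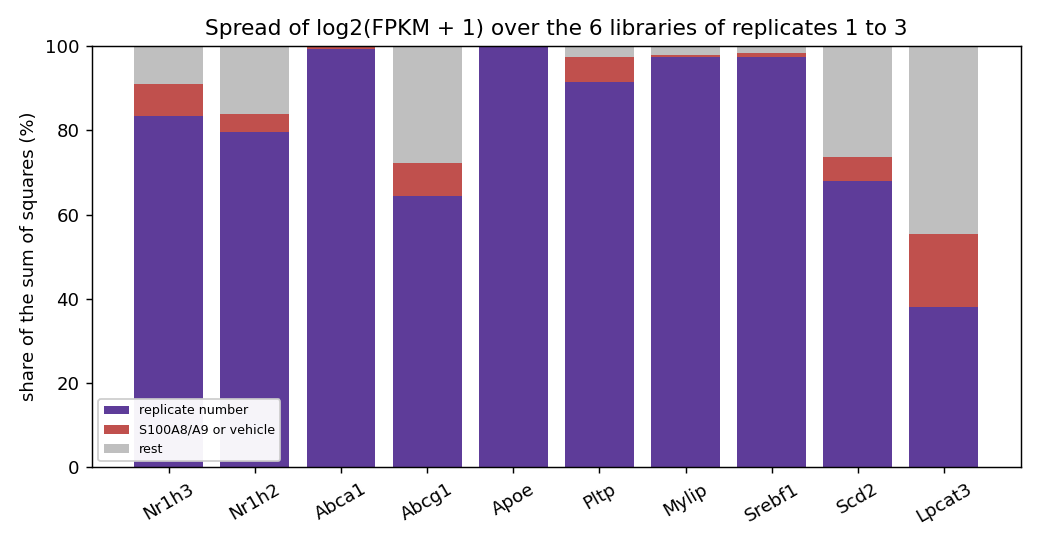
Share of the sum of squares of log2(FPKM + 1) over the 6 libraries of replicates 1 to 3 that lies between replicate numbers, between S100A8/A9 and vehicle, and in the rest, for each of the 10 genes. The share of the replicate number runs from 38.1% for Lpcat3, where the rest holds 44.6%, to 99.7% for Apoe. It exceeds that of the group for every gene shown, which 3 numbers against 2 groups favor even without an effect.

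Macrophage markers varied between replicate numbers alongside Apoe. Their mean log2(FPKM + 1) in replicates 1 to 3 was 6.02, 5.12 and 4.54 with S100A8/A9 and 5.92, 5.05 and 4.45 with vehicle. Abca1 shared the high replicate 1, but its levels in replicates 2 and 3 were alike. The mean of the 10 dendritic cell markers, which several near 0 hold down, was 3.59, 3.32 and 3.44 with S100A8/A9 and 3.61, 3.35 and 3.43 with vehicle. Of these 10 markers only 5 passed the filter. Cd209a was listed at 0 in all 6 libraries, and Flt3, Xcr1, Clec9a and Dpp4 stayed under 1 FPKM. Among the tested ones, H2-Ab1 had 671, 375 and 327 FPKM with S100A8/A9 in replicates 1 to 3 and 670.2, 402 and 336 FPKM with vehicle, highest in replicate 1 as Apoe was. H2-Aa was likewise highest in replicate 1, at 714 FPKM with S100A8/A9 and 712 FPKM with vehicle, and lowest in replicate 3, at 459 FPKM with S100A8/A9 and 442 FPKM with vehicle. Itgax lay between 47.2 and 66.9 FPKM and Ccr7, highest in replicate 3, between 141 and 227 FPKM. Zbtb46 was highest in replicate 3 too, at 3.62 FPKM with S100A8/A9 and 3.33 FPKM with vehicle. It was lowest in replicate 1, at 2.31 FPKM with S100A8/A9 and 2.13 FPKM with vehicle. The cell type label is dendritic cell, whereas the titles use the letters BMDM, which commonly stand for bone marrow-derived macrophage. Erythroid markers were high in replicate 3, at 3.71 with S100A8/A9 and 3.96 with vehicle, against at most 1.32 in the other libraries of the first table. Mean monocyte marker levels ran from 2.39 to 2.54 with S100A8/A9 and from 2.27 to 2.65 with vehicle. Neutrophil markers ran from 1.24 to 1.31 with S100A8/A9 and from 1.27 to 1.33 with vehicle. T, NK and B cell markers ran from 0.548 to 0.684 with S100A8/A9 and from 0.615 to 0.717 with vehicle. The filter passed 3 of 6 monocyte, 2 of 10 neutrophil and 2 of 6 T, NK and B cell markers. The neutrophil mean rests mainly on Mmp8, at 59.8 to 98.5 FPKM in the first table, and Csf3r, at 4.59 to 11.6 FPKM. The part of cell makeup in the spread of Apoe and Abca1 was not tested.

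**Figure D4:**
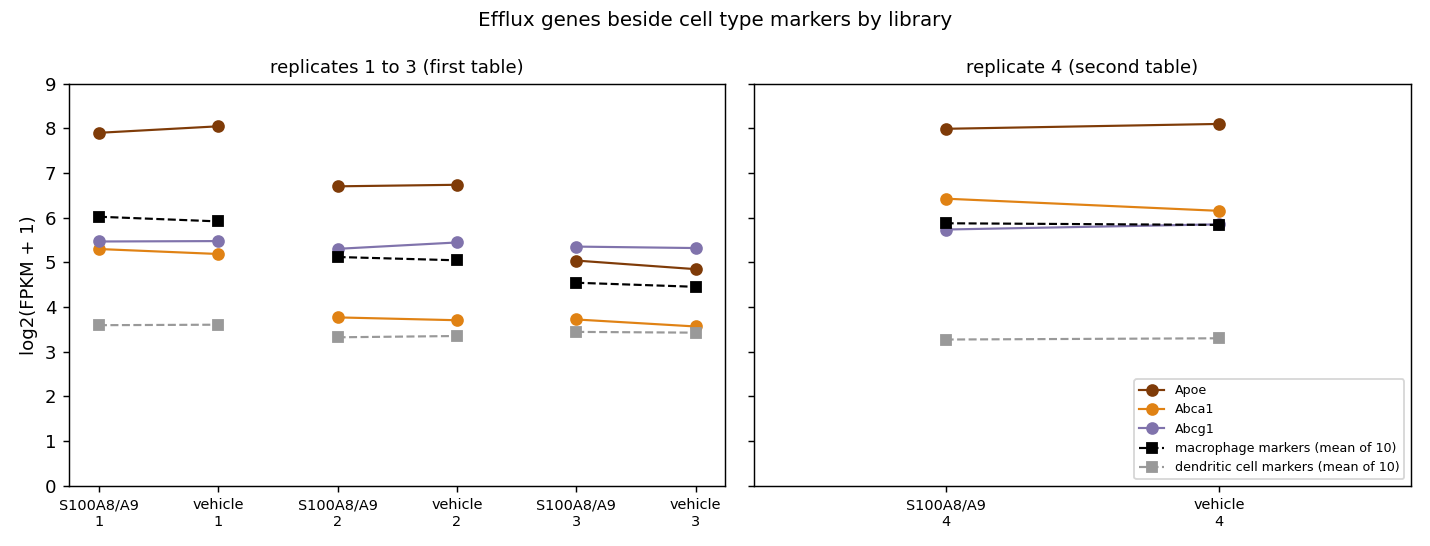
log2(FPKM + 1) of Apoe, Abca1 and Abcg1 in each library, beside the mean of 10 macrophage and 10 dendritic cell markers, with S100A8/A9 left of vehicle in each pair. In the first table Apoe and the macrophage markers are both highest in replicate 1 and lowest in replicate 3, with Apoe between 27.8 and 263 FPKM, while Abcg1 stays level.

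The genes with the most similar patterns over the 6 libraries were sought among 6452 other genes whose mean reached 5 FPKM, as a description without a test. Libraries of the same number resemble each other, so such correlations carry few independent points. For Apoe they were Hyou1, Fbp1 and Cd300lb, with Pearson's r from 0.997 to 0.998. Fbp1 had 14.1, 7.24 and 2.96 FPKM with S100A8/A9 in replicates 1 to 3 and 14.0, 7.58 and 2.96 FPKM with vehicle. For Abca1 they were Bag1, Rnase4 and Gpnmb, with r from 0.995 to 0.998. Pearson's r follows the shape of a pattern and not its size. Bag1, with the highest r, had 31.8, 27.7 and 27.6 FPKM with S100A8/A9 in replicates 1 to 3. With vehicle it had 31.3, 27.6 and 27.5 FPKM, a far smaller spread than that of Abca1. Gpnmb, a glycoprotein of lipid-laden macrophages, had 853, 397 and 356 FPKM with S100A8/A9 and 843, 389 and 323 FPKM with vehicle. For Srebf1 they were Furin, Slc7a1 and Plp2 (r from 0.997 to 0.998), and for Nr1h3 they were Pea15a, Fez2 and Tbca (r from 0.967 to 0.974).

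A wider list of 53 genes of the pathway gave 38 tested genes and no call in either limma fit. At an unadjusted p under 0.05 the count was 1 of 38 with group alone and 6 of 38 with the block, beside 3.02% and 7.97% of all tested genes. The median log2 difference of the 38 was 0.02, against 0.02 over all tested genes. In all 3 pairs 9 of the 38 were higher with S100A8/A9 (23.7%, beside 19.4% of all tested genes) and 2 were lower.

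Receptor partners and corepressors numbered 7 tested of 8. Ppard, which encodes another lipid-sensing nuclear receptor, averaged 12.4 ± 3.62 FPKM with S100A8/A9 and 10.3 ± 1.33 FPKM with vehicle (SD, n = 3 each), and its adjusted p was 0.666 in the blocked limma fit. It was higher with S100A8/A9 in 4 of 4 pairs, with ratios of 1.12, 1.04, 1.42 and 1.15. Ncor1, a corepressor that holds LXR targets off in the absence of ligand, averaged 25.5 ± 3.19 FPKM with S100A8/A9 and 26.4 ± 3.64 FPKM with vehicle (SD, n = 3 each).

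Among enzymes that make or remove sterol ligands, 3 of 7 were tested. Cyp27a1, which makes 27-hydroxycholesterol, averaged 5.22 ± 1.99 FPKM with S100A8/A9 and 5.04 ± 2.76 FPKM with vehicle (SD, n = 3 each). Hsd3b7, an enzyme of bile acid synthesis from oxysterols, averaged 26.0 ± 2.71 FPKM with S100A8/A9 and 26.2 ± 2.80 FPKM with vehicle (SD, n = 3 each). Ch25h, the interferon-inducible enzyme that makes the LXR ligand 25-hydroxycholesterol, missed the filter and is named after its values were seen. It had 0.776, 0.640 and 1.26 FPKM with S100A8/A9 in replicates 1 to 3, against 0.455, 0.589 and 0.799 FPKM with vehicle. In replicate 4 it had 0.971 FPKM with S100A8/A9 and 1.02 FPKM with vehicle, so 3 of 4 pairs were higher. Without the filter its log2 difference was 0.22 ± 0.19 (SE, group-only limma fit, adjusted p = 0.951).

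Of the other LXR targets, 14 of 21 were tested. Apoc2, an apolipoprotein gene beside Apoe that encodes the cofactor of lipoprotein lipase, averaged 7.95 ± 1.03 FPKM with S100A8/A9 and 9.80 ± 3.78 FPKM with vehicle (SD, n = 3 each), and its adjusted p was 0.791 in the blocked limma fit. The vehicle library of replicate 2 held the highest value, 14.0 FPKM, and without replicate 2 the log2 difference was -0.02. In replicate 4 Apoc2 was listed at 0 with S100A8/A9 and at 0.0386 FPKM with vehicle. Smpdl3a, a phosphodiesterase gene, averaged 81.4 ± 18.4 FPKM with S100A8/A9 and 78.4 ± 19.9 FPKM with vehicle (SD, n = 3 each).

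Cholesterol trafficking, storage and efflux genes gave 13 tested of 15, and 6 of the 13 were higher with S100A8/A9 in all 3 pairs, of which 4 were also higher in pair 4. Of all tested genes 19.4% were higher in all 3 pairs, and 11.7% of those in both tables in all 4. At an unadjusted p under 0.05 the count was 5 of 13 in the blocked limma fit, beside 7.97% of all tested genes. With group alone it was 1 of 13, beside 3.02%. Stard3, which encodes a cholesterol transfer protein of late endosomes, came closest to a call. It averaged 20.4 ± 1.63 FPKM with S100A8/A9 and 15.3 ± 2.13 FPKM with vehicle (SD, n = 3 each), or 1.34-fold within pairs. Its ratios were 1.27, 1.30, 1.45 and 0.993 in replicates 1 to 4. The adjusted p was 0.0958 in the blocked limma fit and 1.00 with group alone. Cav1, a caveolar membrane protein gene, averaged 82.8 ± 16.1 FPKM with S100A8/A9 and 72.6 ± 14.3 FPKM with vehicle (SD, n = 3 each), and its adjusted p was 0.379 in the blocked limma fit.

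Lrp8, a lipoprotein receptor gene whose product Mylip marks for degradation, averaged 9.52 ± 2.12 FPKM with S100A8/A9 and 8.10 ± 2.49 FPKM with vehicle (SD, n = 3 each), and its adjusted p was 0.502 in the blocked limma fit. Its ratios were 1.27, 1.23, 1.09 and 1.14, higher with S100A8/A9 in 4 of 4 pairs. Vldlr, which encodes another such receptor, missed the filter with at most 0.241 FPKM.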

How the data were processed

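Poly(A) RNA was sequenced after random-primed reverse transcription, per the labels' protocols, which mention no strand selection. If there was none, reads of overlapping genes may not have been told apart. Tools named in the submitters' processing notes, without their roles, are DESeq2 1.34.0, HISAT2, Subread and featureCounts, with mm10 as the build. The deposited values are FPKM per gene, a unit inferred from the values. With GENCODE exon lengths, 97.3% (S100A8/A9) and 97.0% (vehicle) of low replicate 4 values came out as whole reads to within 0.01.

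From these, log2(FPKM + 1) was tested with limma 3.58.1 (trend, R 4.3.3), two-sided, with Benjamini-Hochberg adjustment over 11387 genes, and checked on simulated data. Fold changes on this scale understate changes of low genes. Deviations from group means correlated at 0.59, 0.25 and 0.52 between libraries of the same number and from -0.53 to -0.01 otherwise. The deviations of a group cancel for each gene, so positive values within numbers push the others down, and these are no separate evidence of pairing. From the positive values, weakest for replicate 2, the numbers were taken to pair libraries. Alternatives were the block, all 8 libraries, a pseudocount of 0.1, no filter, 4 scalings and left-out libraries. The genes, lists and tests were chosen with earlier results of these data known. A gene of the pathway list is not reported here and is left out of its counts. Named genes were the 10 members, the 2 pathway genes per list with the smallest blocked p, and for 4 members the 3 genes with the highest correlation. Gene symbols came from Ensembl names, positions from GENCODE (mm10), promoters from RefSeq (GRCm38.p6). Ratios of replicates are geometric means where averaged.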

Additional observations from a re-analysis of the deposited data

How the results depend on the processing

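The count of 0 called genes among the 10 members held under every alternative run, as did the count of 0 in the wider pathway list. Over all tested genes the group-only count of 0 became 59 with the replicate block, was 0 with all 8 libraries and the block, and lay between 0 and 1 without single libraries, the 1 arising without vehicle replicate 2. With the replicate block it was 40 without replicate 1, 98 without replicate 2 and 7 without replicate 3. The pairing by replicate number changed no call of a gene named in the text.

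The signs of these small differences were not stable. Of 180 values of the 10 genes under alternatives, 147 kept the sign and 33 did not, with 0 past the threshold. Of 178 values of the 10 other pathway genes tested and named, 155 kept the sign and 23 did not. The replicate block and the fit without a filter leave a log2 difference unchanged by construction, so those values could not turn. With all 8 libraries the block likewise repeats the values of the fit without it. The values that turned, over both sets, were, as log2 differences, Apoe -0.024 and Ncor1 0.024 with all 8 libraries, and the same with all 8 libraries and the replicate block. They were Apoe -0.016 and Fasn -0.0092 with a common sum, then Apoe -0.019 and Fasn -0.013 with median-of-ratios factors, then Apoe -0.053, Mylip -0.032, Srebf1 -0.024 and Fasn -0.045 with upper-quartile factors, then Apoe -0.043, Mylip -0.038, Srebf1 -0.022, Smpdl3a -0.0085 and Fasn -0.041 with quantile normalization. With the replicate block they were Scd2 0.0022 and Hsd3b7 0.049 without replicate 1, then Abcg1 0.012 and Lpcat3 0.00034 without replicate 2, then Nr1h2 -0.030, Apoe -0.090, Mylip -0.00064, Cyp27a1 -0.050 and Fasn -0.060 without replicate 3. Without single libraries and without the block, the ranges were Nr1h3 -0.070 to 0.34, Nr1h2 -0.094 to 0.21, Abca1 -0.41 to 0.63, Apoe -0.84 to 0.76, Pltp -0.037 to 0.22, Mylip -0.074 to 0.15, Srebf1 -0.066 to 0.15, Scd2 -0.13 to 0.025, Ncor1 -0.15 to 0.045, Cyp27a1 -0.16 to 0.44, Hsd3b7 -0.082 to 0.071, Apoc2 -0.43 to 0.047, Smpdl3a -0.12 to 0.24 and Fasn -0.17 to 0.20. The median over the 10 genes ranged from -0.072 to 0.087, lowest without vehicle replicate 3. With group alone, leaving out 1 library changes the mix of replicate numbers in the groups, and Abca1 and Apoe, which differ most between numbers, moved most. The depth of replicates 1 to 3 is unknown, and 3 pairs cannot show differences within the intervals given above.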
